A study of Homo sapiens with 6 samples.

Results

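The replication-dependent histone genes measured here are the genes for the core histones H2A, H2B, H3 and H4 and the linker histones H1-1 to H1-5 that carry the symbols of the genomic histone clusters. They were chosen by symbol, as genes whose platform symbol starts with H2AC, H2BC, H3C or H4C or is H1-1 to H1-5, without pseudogenes. The rule took 68 of the 18140 genes with a probe set, and it used no measured value. These 68 genes had 112 probe sets, of which 103 are annotated to 1 gene and 9 to several histone genes. The probe set with the highest mean signal stood for each gene. For 9 genes that probe set was shared: H2AC18 with H2AC19, H4C11 with H4C12, H4C14 with H4C15, H3C14 with H3C15, and H3C13 with H3C14, H3C15 and H3-7. The 68 genes therefore rest on 64 distinct probe sets, and 29 of these have names ending in _x_at or _s_at, the maker's mark for probes that can bind related transcripts.

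Histone proteins package DNA, and a cell needs a new set of them each time it copies its genome, so these genes are transcribed mainly in S phase. NPAT, a substrate of cyclin E with CDK2, drives their transcription in nuclear bodies at the histone clusters. Their mRNAs mostly end in a stem-loop and not in a poly(A) tail: the stem-loop binding protein SLBP and the U7 small nuclear ribonucleoprotein direct the cut that forms this end, and the mRNAs are degraded when replication stops. Several histone genes are reported to give polyadenylated transcripts as well, mainly in cells that do not divide.

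Total RNA of 3 CSF3 samples and 3 Ctrl samples was labelled with biotin and measured on Affymetrix arrays, 1 array per sample. All 6 samples carry the label of HCT116, a line from a human colorectal carcinoma, grown in RPMI medium with fetal bovine serum and antibiotics. CSF3 encodes granulocyte colony-stimulating factor, and how its level or supply was altered in the CSF3 samples is not stated in the labels. Whether replicates are separate cultures is not stated either. The p-values therefore cover the spread among these 6 arrays alone, and that spread may be technical. The labelling method, and with it the use of oligo(dT) or random primers, is not given in the sources used here. In such bulk RNA, a change in the share of cells in S phase and a change in histone RNA per cell cannot be told apart. Signals are the deposited values on what appears to be a log2 scale, changes are CSF3 minus Ctrl on that scale with the standard error (SE), and a gene was called higher or lower at a limma adjusted p under 0.05.

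The labels and the arrays were checked before the histone genes were read. CSF3 itself had signals of 5.97, 5.91 and 5.99 on the CSF3 arrays, against 5.13, 4.85 and 4.52 on the Ctrl arrays, a rise of 1.12 ± 0.14 (SE, limma adjusted p = 0.000353). Of the colon epithelial markers, EPCAM averaged 3.30 ± 0.10 on CSF3 arrays and 3.63 ± 0.05 on Ctrl arrays, and CDH1 2.24 ± 0.04 on CSF3 arrays and 2.20 ± 0.09 on Ctrl arrays (SD, n = 3 each), low signals that go against the label of this epithelial line. Other markers of that list read higher. KRT18 read 7.48 ± 0.06 on CSF3 arrays and 7.26 ± 0.01 on Ctrl arrays, and CDX2 4.79 ± 0.02 and 4.45 ± 0.05. KRT8 read 5.06 ± 0.17 on CSF3 arrays and 6.37 ± 0.05 on Ctrl arrays, a fall of 1.32 ± 0.09. KRT19, VIL1, CEACAM5, CLDN7 and ELF3 had group means of 1.43 to 3.24. The epithelial markers were thus mixed, and the samples are called by their label, cells labelled HCT116. Of the 10 colon epithelial markers 5 rose and 2 fell, and their summed signal ran from 8.18 to 8.21 on CSF3 arrays and from 8.23 to 8.26 on Ctrl arrays. Of 6 fibroblast markers 5 rose (sum 5.60 to 5.74 on CSF3 arrays, 5.15 to 5.21 on Ctrl arrays), and of 7 leukocyte markers 4 rose (sum 6.26 to 6.39 on CSF3 arrays, 5.93 to 5.98 on Ctrl arrays). After quantile normalization 3 of the fibroblast and 3 of the leukocyte markers rose, and as deposited 44.0% of all genes did, with 63.3% among genes of mean signal under 3. PTPRC, which marks leukocytes in general, averaged 1.66 ± 0.20 on CSF3 arrays and 1.42 ± 0.07 on Ctrl arrays and was not called. The part of these marker genes' cell types in the histone values was not tested.

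Array controls that measure no gene of the cells also differed between the groups. The 18 hybridisation controls had a median of 8.36 ± 0.05 on CSF3 arrays and 6.82 ± 0.07 on Ctrl arrays, and the 24 poly-A controls, RNAs with a tail that are usually added before labelling, 5.61 ± 0.03 on CSF3 arrays and 4.09 ± 0.30 on Ctrl arrays (SD, n = 3 each). The 3' minus 5' gap of GAPDH was 0.682 on CSF3 arrays and 0.306 on Ctrl arrays, and that of ACTB 1.94 on CSF3 arrays and 1.34 on Ctrl arrays. An exact permutation test (two-sided) gave p = 0.1 for each of the 4 differences, which is the floor for 3 against 3 arrays. The 23 background probe sets, named for the number of G and C bases in their probes, changed by 0.01 to 0.34, and by 0.25 or more in those with 18 to 25 such bases. Their levels differed widely too. The control with 19 such bases averaged 3.84 on CSF3 arrays and 3.58 on Ctrl arrays, and that with 21 averaged 5.09 and 4.78. Histone signals between 3 and 5 thus lie within the range of these controls. What part these control differences have in the changes of the histone genes was not tested, and the base composition of the histone probes was not used here.

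Most histone genes read higher in CSF3 cells than in Ctrl cells, by small amounts. Of the 68 genes 38 rose, 1 fell and 29 were not called, where 44.0% of all 18140 genes rose, 26.5% fell and 70.5% did either. The share of histone genes that rose, 55.9%, lay near that of all genes, and falls were fewer. The median change was 0.30 over the histone genes and 0.16 over all genes. Changes ran from -0.75 in H2BC12 to 0.89 in H2AC20, 64 of the 68 were positive (49 after quantile and 44 after cyclic loess normalization), and none reached the log2 change of 1 that makes 2-fold, a size that 0.645% of all genes exceeded upwards and 3.37% downwards. On all 3 CSF3 arrays 42 histone genes lay above all 3 Ctrl arrays and 1 below, against 47.2% and 29% of all genes. Counted over all 112 histone probe sets, 53 rose and 2 fell, where 37.1% of all probe sets rose, 28.4% fell and 65.5% did either.

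**Figure D1:**
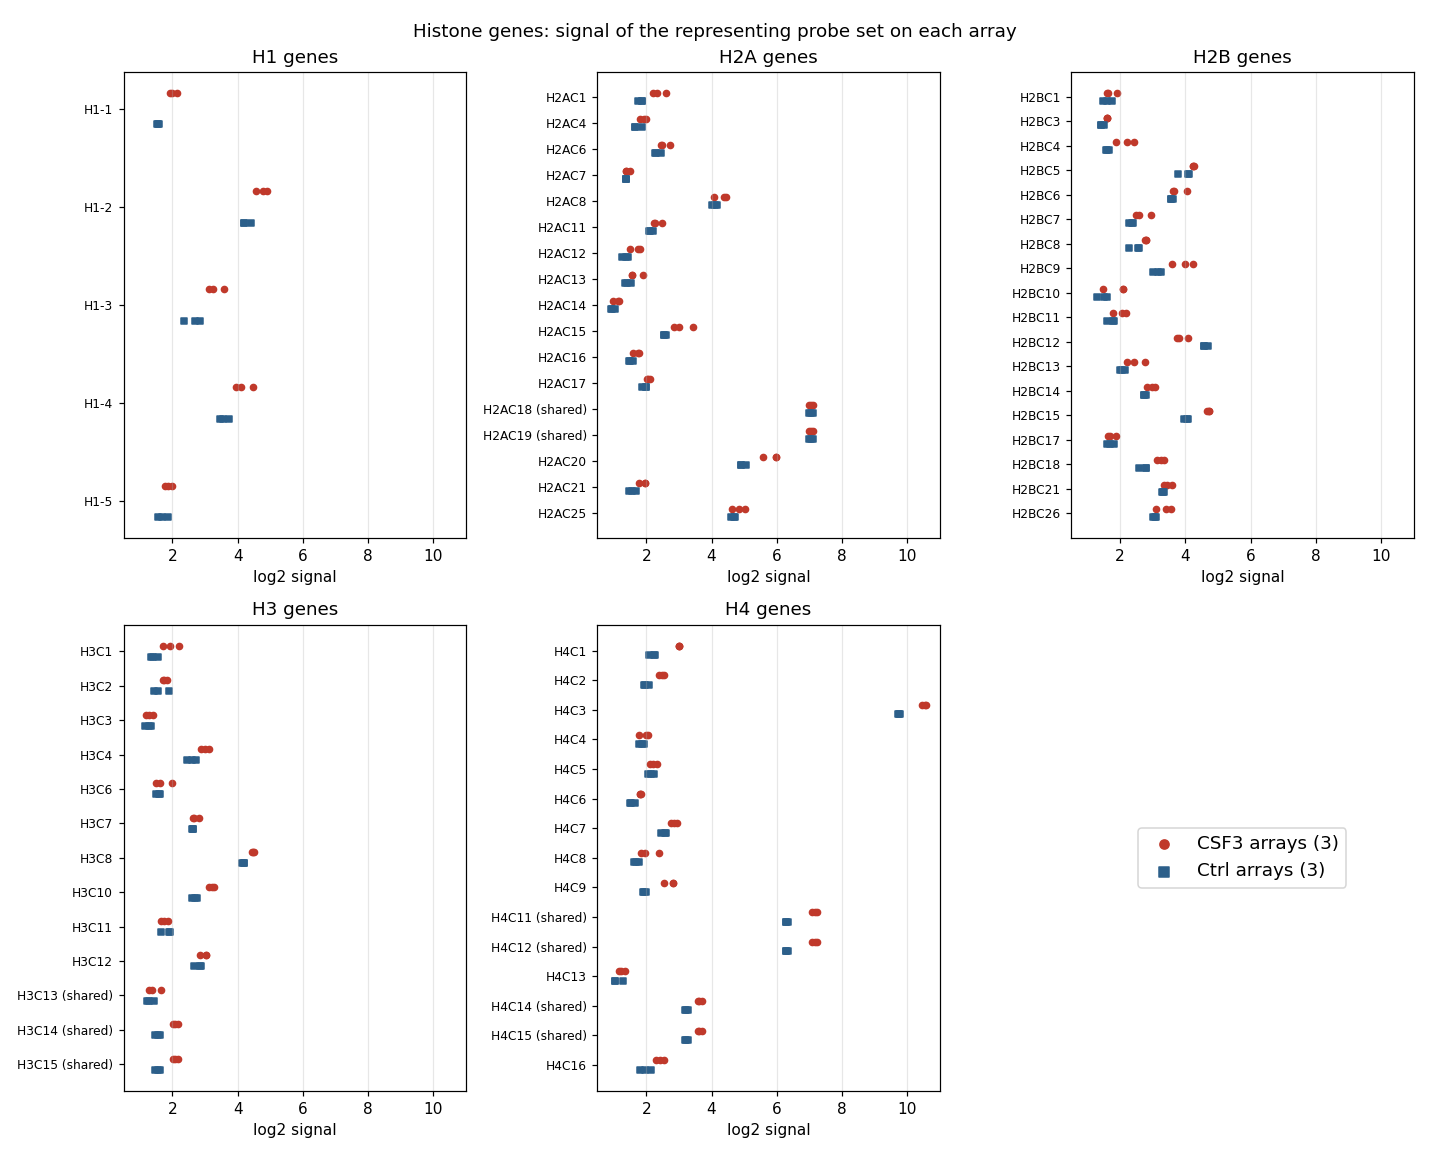
Deposited log2 signal of each of the 68 histone genes on the 3 CSF3 arrays (circles, upper) and the 3 Ctrl arrays (squares, lower), by histone class, from the probe set that stands for the gene. H4C3, at 10.45 to 10.57 on CSF3 arrays and 9.72 to 9.78 on Ctrl arrays, lies farthest to the right, and H2BC12 is the called gene whose CSF3 arrays lie below its Ctrl arrays.

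The counts of calls depended on how the arrays were scaled. The deposited signals had a wider spread on Ctrl arrays, with quartiles at 2.40 to 2.43 and 5.37 to 5.40 on CSF3 arrays, against 2.18 to 2.19 and 5.63 on Ctrl arrays. After quantile normalization 25 histone genes rose and 2 fell (of all genes 38.1% rose and 19.2% fell, 57.3% in all), with a median change of 0.17 against 0.13 for all genes. After cyclic loess normalization 23 rose and 3 fell (of all genes 35.3% rose and 20.7% fell, 55.9% in all), with a median of 0.14 against 0.10. The histone genes that rose as deposited, after both normalizations and after subtraction of array medians number 21, which rest on 18 probe sets, where 27.2% of all genes met the same 4 calls. They are H1-1, H1-2, H1-3 and H1-4, H2AC1 and H2AC20, H2BC9, H2BC15 and H2BC18, H3C8, H3C10, H3C14 and H3C15, and H4C1, H4C2, H4C3, H4C9, H4C11, H4C12, H4C14 and H4C15. Among them H1-1, H1-3, H2AC1, H2BC18, H3C10, H3C14, H3C15, H4C1, H4C2 and H4C9 have a mean signal under 3. Without detection calls, such low signals limit what these calls show. H2BC12 was lower in all 4, and all 22 genes were also called as deposited with each array left out in turn.

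H4, the protein that pairs with H3 at the centre of the nucleosome, has many near-identical genes. Of 15 H4 genes 12 rose (80.0%, where 44.0% of all genes did), with a median change of 0.41. The other 3, H4C4, H4C5 and H4C13, changed by 0.06 to 0.13 without passing the test. After quantile normalization 8 H4 genes rose, none fell and the median was 0.25, where 38.1% of all genes rose. H4C11 and H4C12 lie close together in the 6p22 cluster (GRCh38.p14 chr6:27824092-27824480 and chr6:27831174-27831560). Their shared probe set read 7.18, 7.07 and 7.23 on CSF3 arrays, against 6.35, 6.28 and 6.29 on Ctrl arrays. The groups did not overlap, and the change was 0.85 ± 0.06 (1.81-fold, limma adjusted p = 3.98e-05). Of the 2 probe sets annotated to H4C12 alone, the first changed by 0.39 ± 0.06 (limma adjusted p = 0.000712) and the second by 0.69 ± 0.06 (limma adjusted p = 7.2e-05), so all 3 rose while their sizes differed.

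H4C3 (chr6:26103933-26104337) had signals of 10.45, 10.56 and 10.57 on CSF3 arrays, against 9.78, 9.72 and 9.74 on Ctrl arrays. Every CSF3 array lay above every Ctrl array, with a change of 0.78 ± 0.06 (1.72-fold, limma adjusted p = 4.26e-05), and its other probe set gave 0.85 ± 0.05 (limma adjusted p = 2.06e-05). The 2 probe sets of H4C3 thus agreed in size, and quantile normalization left the change at 0.88. H4C1 (chr6:26021649-26022050) read 2.99, 2.99 and 3.01 on CSF3 arrays, against 2.24, 2.27 and 2.09 on Ctrl arrays, a change of 0.80 ± 0.07 (1.75-fold, limma adjusted p = 5.47e-05) that was 0.60 after quantile normalization. With no detection calls, a signal this low cannot be told from that of a gene that is off. Of the remaining H4 genes that rose, H4C9 changed by 0.78 ± 0.09, H4C2 by 0.48 ± 0.07, H4C16 by 0.45 ± 0.10 and the shared probe set of H4C14 and H4C15 by 0.41 ± 0.06. H4C6, H4C7 and H4C8 changed by 0.26, 0.30 and 0.37. These last 3 and H4C16, the single H4 gene outside the clusters on chromosomes 1 and 6, were no longer called after quantile normalization.

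RefSeq promoter windows were matched to 63 of the 68 genes. Each spans 250 bases before and 50 after the gene's start. The windows of H4C11 and H4C12 are shown because these genes share the probe set that rose, that of H2AC20 for the greatest rise, that of H2BC15 because it and its divergent neighbour both rose, and that of H2BC12 for the single fall. Capitals mark 4 motifs on either strand: the TATA box TATAAA, the CCAAT box CCAAT, the octamer ATTTGCAT to which OCT1 binds in H2B promoters, and GGTCCG, a hexamer of the H4 element bound by HINFP. The reverse complement is marked too, and neighbouring matches can overlap, as in the letters ATTGGTCCG of H2AC20. From RefSeq (GRCh38.p14), 5' to 3' along each gene, the windows are H4C11 at chr6:27823842-27824141 on the plus strand, H4C12 at chr6:27831511-27831810 on the minus strand, H2AC20 at chr1:149886668-149886967 on the plus strand, H2BC15 at chr6:27838319-27838618 on the plus strand and H2BC12 at chr6:27146809-27147108 on the minus strand.
H4C11: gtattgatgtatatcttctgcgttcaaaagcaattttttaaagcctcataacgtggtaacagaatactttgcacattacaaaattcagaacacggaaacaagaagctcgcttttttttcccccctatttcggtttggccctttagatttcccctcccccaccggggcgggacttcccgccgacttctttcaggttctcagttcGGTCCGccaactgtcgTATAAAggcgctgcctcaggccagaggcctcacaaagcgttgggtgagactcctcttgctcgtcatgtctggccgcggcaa
H4C12: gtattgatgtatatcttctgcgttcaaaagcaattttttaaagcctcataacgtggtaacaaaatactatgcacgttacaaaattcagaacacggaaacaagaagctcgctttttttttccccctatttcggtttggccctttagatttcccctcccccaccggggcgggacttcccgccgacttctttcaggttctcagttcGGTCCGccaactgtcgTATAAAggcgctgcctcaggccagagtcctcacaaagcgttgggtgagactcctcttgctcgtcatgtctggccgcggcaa
H2AC20: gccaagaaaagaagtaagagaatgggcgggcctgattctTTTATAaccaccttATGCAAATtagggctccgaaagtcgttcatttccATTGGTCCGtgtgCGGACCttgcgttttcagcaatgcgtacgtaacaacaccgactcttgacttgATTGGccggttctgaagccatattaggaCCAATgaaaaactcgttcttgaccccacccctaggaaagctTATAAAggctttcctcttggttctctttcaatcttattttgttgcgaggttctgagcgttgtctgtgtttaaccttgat
H2BC15: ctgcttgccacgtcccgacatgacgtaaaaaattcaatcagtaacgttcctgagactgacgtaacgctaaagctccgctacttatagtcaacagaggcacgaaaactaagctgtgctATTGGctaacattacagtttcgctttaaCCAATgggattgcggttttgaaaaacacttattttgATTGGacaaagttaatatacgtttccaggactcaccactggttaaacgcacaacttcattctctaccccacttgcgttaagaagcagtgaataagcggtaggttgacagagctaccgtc
H2BC12: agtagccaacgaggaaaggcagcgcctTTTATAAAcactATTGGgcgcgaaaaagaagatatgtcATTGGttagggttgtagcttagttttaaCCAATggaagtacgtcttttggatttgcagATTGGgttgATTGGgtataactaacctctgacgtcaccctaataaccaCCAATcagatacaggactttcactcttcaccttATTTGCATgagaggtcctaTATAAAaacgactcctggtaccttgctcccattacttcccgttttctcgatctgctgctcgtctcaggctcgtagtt
The H4C11 and H4C12 windows are identical at 295 of 300 bases, and each holds GGTCCG just before a TATA box. H2AC20 holds all 4 motifs, H2BC15 holds CCAAT boxes alone, and H2BC12 holds CCAAT boxes, TATA boxes and the octamer.

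The motifs differed by histone class. GGTCCG was in the windows of 12 of 13 H4 genes, in 1 each of the H2A genes (H2AC20), the H2B genes (its divergent neighbour H2BC21) and the H3 genes, and in 11.2% of 27305 windows of all genes. Among H4 genes it was in 9 of 10 that rose and in 3 of 3 that were not called. The octamer was in 11 of 16 H2A windows, 14 of 18 H2B windows and none of the 13 H4 windows, where 1.80% of all windows hold it. CCAAT was in 84.1% of histone windows (35.7% of all) and TATAAA in 66.7% (12% of all). The octamer was in 11 of 35 windows of genes that rose and in 14 of 27 of genes not called. These 2 groups differ in class, since H4 genes, none with the octamer, make up 10 of the 35 and 3 of the 27. A link between the octamer and the calls was not tested. A match is a description of these letters and says nothing of a factor's binding.

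H2B genes, whose protein pairs with H2A in the nucleosome, held both many rises and the single fall. Of 18 genes 11 rose (61.1%, where 44.0% of all genes did), 1 fell and 6 were not called, with a median change of 0.29. After quantile normalization 4 rose, where 38.1% of all genes did. H2BC15 (chr6:27838569-27839110) read 4.74, 4.67 and 4.72 on CSF3 arrays, against 4.06, 3.97 and 4.07 on Ctrl arrays. The CSF3 arrays all lay above, with a change of 0.67 ± 0.06 (1.60-fold, limma adjusted p = 7.25e-05) and of 0.79 after quantile normalization. H2BC9 changed by 0.80 ± 0.15 (limma adjusted p = 0.00307), and its other 2 probe sets by 0.49 and 0.72. H2BC4 changed by 0.56 ± 0.13, H2BC18 by 0.53 ± 0.08, and the remaining 7 that rose, H2BC3, H2BC5, H2BC7, H2BC8, H2BC13, H2BC14 and H2BC26, by 0.17 to 0.39. The second probe set of H2BC4 changed by 0.02, and the other probe sets of H2BC18 by 0.12 to 0.30. None of these was called, so the calls of H2BC4 and H2BC18 rest on 1 probe set each. The genes not called were H2BC1, H2BC6, H2BC10, H2BC11, H2BC17 and H2BC21, with changes of 0.03 to 0.42. H2BC10 had signals of 1.47, 2.08 and 2.08 on CSF3 arrays, against 1.29, 1.5 and 1.6 on Ctrl arrays, and was called higher (0.62) when CSF3 replicate 1 was left out.

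H2BC12, which is reported to give a polyadenylated transcript besides its replication-dependent one, was the gene that fell. Its standing probe set read 4.07, 3.73 and 3.80 on CSF3 arrays, against 4.58, 4.68 and 4.58 on Ctrl arrays. All CSF3 arrays lay below all Ctrl arrays, with a change of -0.75 ± 0.10 (1.68-fold lower, limma adjusted p = 0.000411). The other probe set of H2BC12 read 2.27, 1.88 and 1.70 on CSF3 arrays, against 1.55, 1.69 and 1.82 on Ctrl arrays. These groups overlapped, and its change of 0.27 ± 0.15 was not called (limma adjusted p = 0.136). The mean of both probe sets changed by -0.24 (limma adjusted p = 0.0775), so the call rests on 1 probe set. RefSeq places H2BC12 at chr6:27138293-27146858, a span much longer than that of most histone genes and one that holds H4C9 (chr6:27139282-27139678). Which part of that span each probe set covers was not analysed here.

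Of the 6 genes listed for polyadenylated transcripts, 3 rose (H1-2, H2BC4 and H2BC5), H2BC12 fell, and H2AC6 and H2BC21 changed by 0.22 ± 0.09 and 0.15 ± 0.08 without passing the test. Their median change was 0.24, against 0.30 over the other 62 genes. Of those 62 genes 35 rose and none fell, where 44.0% of all genes rose and 26.5% fell. A difference between the 6 genes and the other 62 was not tested. For H2BC21 the 2 dimmer probe sets, which hold identical values on all 6 arrays, were each called higher with a change of 0.20.

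**Figure D2:**
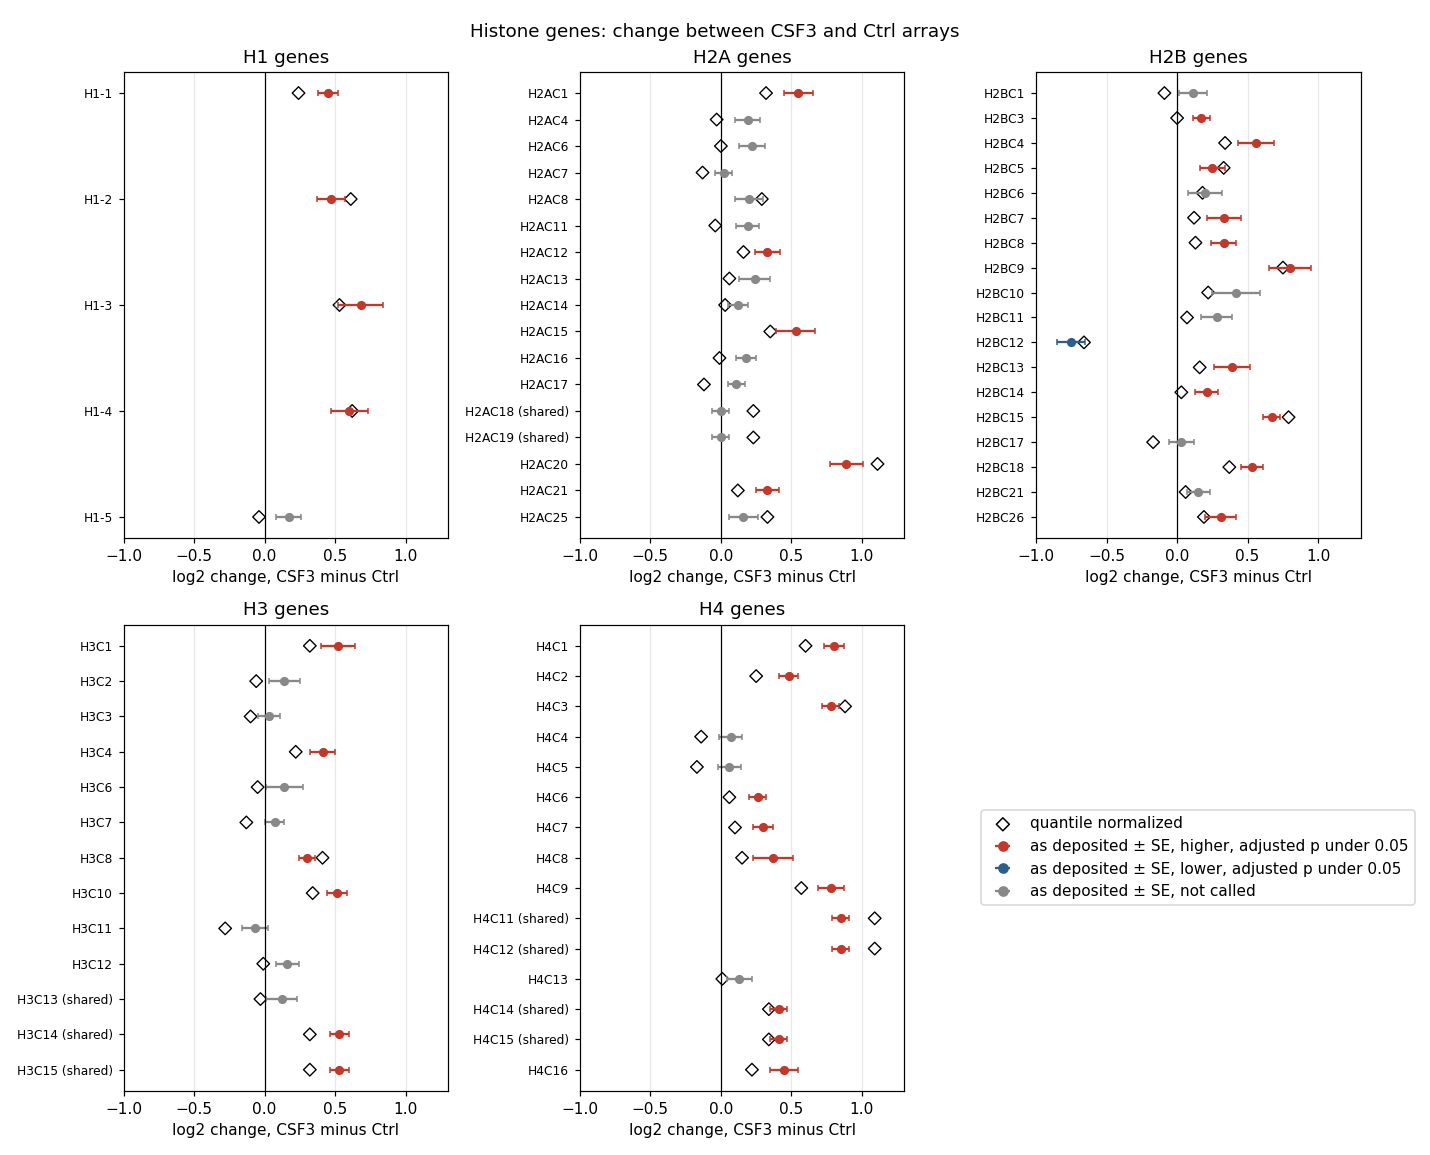
Change in log2 signal, CSF3 minus Ctrl, for each of the 68 histone genes by class, as deposited (circles with the SE, coloured by the call at a limma adjusted p under 0.05) and after quantile normalization (diamonds). Many H2A, H2B and H3 diamonds sit nearer to 0 than their circles, whereas those of H2AC20 and of H4C11 with H4C12 sit farther to the right, at 1.11 and 1.09.

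Of 17 H2A genes 5 rose (29.4%, below the 44.0% of all genes), none fell and 12 were not called, with a median change of 0.19. After quantile normalization 5 rose and the median was 0.12, but of these only H2AC1 and H2AC20 also rose as deposited. The others were H2AC18, H2AC19 and H2AC25 (0.33, limma adjusted p = 0.0335). H2AC20 (chr1:149886918-149887411, in the 1q21 cluster) read 5.57, 5.98 and 5.97 on CSF3 arrays, against 5.07, 4.90 and 4.89 on Ctrl arrays. The groups did not overlap, and the change was 0.89 ± 0.12 (1.85-fold, limma adjusted p = 0.000547). Its other probe set gave 0.42 ± 0.06 (limma adjusted p = 0.000582). H2AC1 changed by 0.55 ± 0.10, H2AC15 by 0.53 ± 0.14, H2AC12 by 0.33 ± 0.09 and H2AC21 by 0.33 ± 0.08, and of these 4 only H2AC1 was still called after quantile normalization. H2AC18 and H2AC19, near-identical copies in the same cluster, share a probe set that read 7.11, 6.99 and 7.04 on CSF3 arrays, against 7.0, 7.1 and 7.05 on Ctrl arrays. These values overlapped fully as deposited, whereas quantile normalization gave a change of 0.23 (limma adjusted p = 0.0133). The second probe set shared by the pair fell by 0.23 ± 0.08 as deposited (limma adjusted p = 0.0273), so the direction of H2AC18 and H2AC19 is not settled. The remaining 10 H2A genes, H2AC4, H2AC6, H2AC7, H2AC8, H2AC11, H2AC13, H2AC14, H2AC16, H2AC17 and H2AC25, changed by 0.02 to 0.24 as deposited.

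H3 genes were divided, with 6 of 13 higher (46.2%, near the 44.0% of all genes) and none lower. Their median change of 0.16 was -0.01 after quantile normalization. H3C8 (chr6:26270918-26271413) read 4.43, 4.51 and 4.46 on CSF3 arrays, against 4.12, 4.18 and 4.20 on Ctrl arrays. Every CSF3 array lay above, by a small step of 0.30 ± 0.06 (1.23-fold, limma adjusted p = 0.00292). H3C10 changed by 0.51 ± 0.07, the shared probe set of H3C14 and H3C15 by 0.53 ± 0.07, H3C1 by 0.52 ± 0.12 and H3C4 by 0.41 ± 0.09. H3C4 and H2AC7 overlap in the annotation (chr6:26196784-26199293 and chr6:26198784-26199293), and H2AC7 changed by 0.02 ± 0.06 (limma adjusted p = 0.744). A probe set shared by both genes changed by 0.02 ± 0.07 (limma adjusted p = 0.798), so the call of H3C4 rests on 1 of its 2 probe sets. H3C2, H3C3, H3C6, H3C7, H3C11, H3C12 and H3C13 changed by -0.07 to 0.16 without passing the test. H3C11 was called lower after quantile normalization, with a change of -0.28 (limma adjusted p = 0.0342).

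Linker histone genes, whose proteins bind the DNA between nucleosomes, rose in 4 of 5 cases, where 44.0% of all genes rose. The same 4 rose after quantile normalization. H1-2 (chr6:26055740-26056470) read 4.56, 4.90 and 4.79 on CSF3 arrays, against 4.21, 4.20 and 4.42 on Ctrl arrays. The lowest CSF3 array lay just above the highest Ctrl array, and the change was 0.47 ± 0.10 (1.39-fold, limma adjusted p = 0.00492). H1-3 changed by 0.68 ± 0.16, H1-4 by 0.60 ± 0.13 and H1-1 by 0.45 ± 0.07. H1-1 averaged 2.01 on CSF3 arrays and 1.56 on Ctrl arrays, where the median background control read 1.44 and 1.42. The highest background control read 9.77 and 9.43, so the median is no level of background for every probe set. With no detection calls, the low signal of H1-1 cannot be told from that of a gene that is off. H1-5 read 1.85, 1.98 and 1.77 on CSF3 arrays, against 1.57, 1.67 and 1.85 on Ctrl arrays, a change of 0.17 ± 0.09 that was not called (limma adjusted p = 0.133).

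By position, 29 of 54 genes of the 6p22 cluster rose (53.7%, where 44.0% of all genes did) and 1 fell, with a median change of 0.27. In the 1q21 cluster 7 of 11 rose, with a median of 0.41, and in the 1q42 cluster H2BC26 (0.31 ± 0.11) rose and H2AC25 (0.16 ± 0.10) was not called. The order of the clusters by median was not tested. Many H2A and H2B genes lie head to head and share the DNA between their starts. Strands were taken from the promoter windows, so only the 63 genes with a window were searched for pairs. In the 11 such pairs found, with starts 194 to 248 bases apart, the partners were often not called alike. H2AC15 and H2BC15 both rose (0.53 and 0.67), 2 pairs had no call (H2AC11 with H2BC11 and H2AC17 with H2BC17), and in 8 pairs a single partner rose, H2B in 6 and H2A in 2. The largest gap in these 11 pairs was that of H2AC20 (0.89) and H2BC21 (0.15), whose starts are 236 bases apart. H2AC12 (chr6:27147106-27147562), which lies next to H2BC12 (chr6:27138293-27146858), has no window and was left out of the search. H2AC12 was called higher (0.33 ± 0.09) and H2BC12 lower (-0.75 ± 0.10), so these neighbours changed in opposite directions. A difference between the partners of a pair was not tested, and a probe set's signal depends on its own probes.

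Changes of all genes differed by signal, so the histone genes were also read by signal. Of the 48 histone genes with a mean signal under 3, 25 rose and none fell, with a median change of 0.27, where 63.3% of all genes in that range rose and their median was 0.31. Of the 14 between 3 and 5, 9 rose and 1 fell, with a median of 0.30, against 54.7% higher, 20.2% lower and a median of 0.28 for all genes. In these ranges the histone genes thus read much like other genes. The 6 genes at or above 5, on 4 probe sets, are H2AC18 with H2AC19, H2AC20, H4C3, and H4C11 with H4C12. In them 4 genes rose, on 3 probe sets, and none fell, with a median change of 0.82, where 23.4% of all genes rose, 47.7% fell and the median was -0.15. The count is too small, and the genes too dependent on shared probes, to be read as more than these values.

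**Figure D3:**
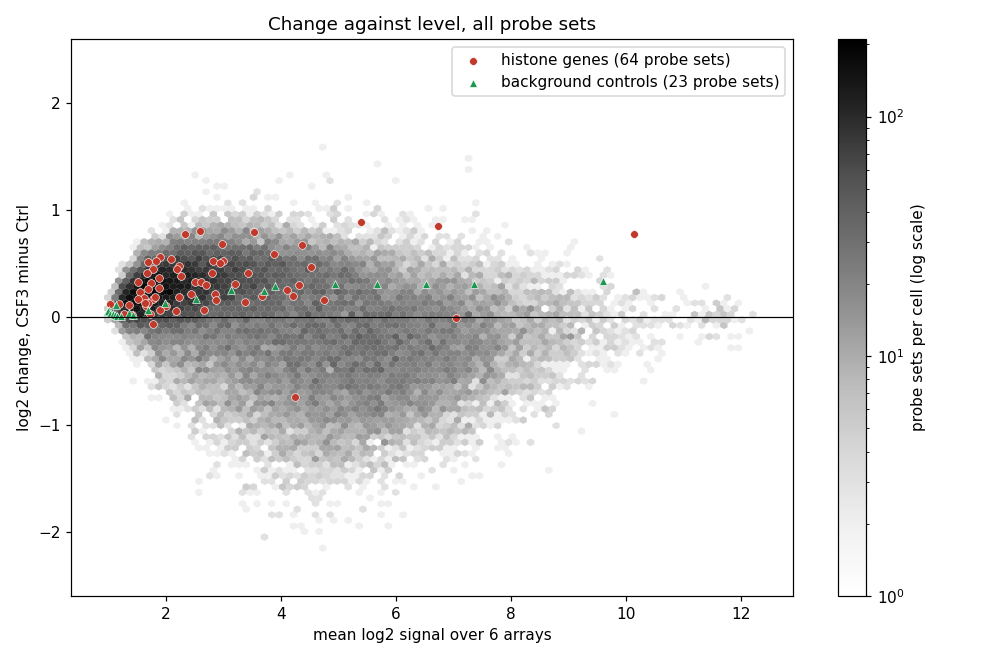
Change in log2 signal, CSF3 minus Ctrl, against the mean log2 signal over the 6 arrays, for all probe sets (grey cells, shaded on a log scale by the number of probe sets), the 64 histone probe sets (red circles) and the 23 background control probe sets (green triangles). Histone probe sets at low signal lie within the grey bulk above 0, and those of H2AC20, H4C11 with H4C12 and H4C3 lie at 0.89, 0.85 and 0.78 above a bulk that is mostly below 0.

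Genes that supply and use histone mRNA did not move in a single direction. Of 13 genes listed for the transcription of histone genes, 5 rose, 2 fell and 6 were not called, with a median change of 0.08. Of all genes 44.0% rose and 26.5% fell, and after quantile normalization 38.1% rose and 19.2% fell. At a mean signal of 5 or more, where most listed genes lie, 23.4% of all genes rose and 47.7% fell as deposited. NPAT read 5.67, 5.77 and 5.63 on CSF3 arrays, against 5.26, 5.30 and 5.16 on Ctrl arrays, a rise of 0.45 ± 0.07 (limma adjusted p = 0.000833). The lowest change among the 3 probe sets of NPAT was -0.04. The genes of its kinase rose as well: CCNE1, for cyclin E1, by 0.48 ± 0.06, CCNE2, for cyclin E2, by 0.60 ± 0.09 and CDK2 by 0.29 ± 0.07. CASP8AP2 encodes FLASH, a second component of the histone locus body that also acts in 3' end cutting. It read 4.87, 4.85 and 5.09 on CSF3 arrays, against 5.58, 5.66 and 5.68 on Ctrl arrays, and fell by 0.70 ± 0.08 (limma adjusted p = 0.000232). TRRAP, a scaffold of acetyltransferase complexes, fell by 0.61 ± 0.06, and E2F1, a transcription factor of S phase entry, changed by 0.18 ± 0.10 (limma adjusted p = 0.133). These directions held after quantile normalization, where E2F1 was called higher at 0.32 and 9 of the 13 genes rose.

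Of 16 genes listed for 3' end processing of histone mRNA, 3 rose, 5 fell and 8 were not called, with a median change of 0.01. Of all genes 26.5% fell, and at a mean signal of 5 or more 47.7% did. After quantile normalization 8 rose and 3 fell, with a median of 0.23, so the balance of this list depended on the scaling. SLBP read 8.02, 7.94 and 7.86 on CSF3 arrays, against 7.87, 7.92 and 7.88 on Ctrl arrays. These values overlapped and the change of 0.05 ± 0.06 was not called (limma adjusted p = 0.492), although after quantile normalization SLBP was called higher at 0.23. LSM11, a protein of the U7 particle, changed by -0.08 ± 0.08 (limma adjusted p = 0.407). CPSF2 and CPSF3, which encode the endonuclease that makes the cut (CPSF3) and its inactive partner (CPSF2), fell by 1.03 ± 0.08 and 0.42 ± 0.06. CPSF2 read 4.43, 4.64 and 4.62 on CSF3 arrays, against 5.60, 5.54 and 5.66 on Ctrl arrays. NCBP1, a subunit of the cap-binding complex, fell by 0.61 ± 0.07, whereas SRRT, which encodes its partner ARS2, rose by 0.92 ± 0.06 (7.75, 7.89 and 7.78 on CSF3 arrays, against 6.90, 6.90 and 6.86 on Ctrl arrays). The 8 probe sets of SRRT ran from -0.11 to 1.0.

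The decay list held the most falls: 9 of 14 genes fell, 3 rose and 2 were not called, with a median change of -0.40. After quantile normalization 7 fell, where 19.2% of all genes did, a share that was not split by signal. XRN1, the cytoplasmic 5' to 3' exonuclease, read 5.19, 5.26 and 5.30 on CSF3 arrays, against 6.43, 6.43 and 6.44 on Ctrl arrays, and fell by 1.19 ± 0.06 (limma adjusted p = 9.97e-06). Its 4 probe sets ran from -1.19 to 0.62. PRKDC, the DNA-dependent protein kinase, fell by 1.3 ± 0.06, SMG1, a kinase that acts on UPF1, by 0.81 ± 0.07 and TUT7, a terminal uridylyltransferase, by 0.62 ± 0.06. The 4 probe sets of PRKDC ran from -1.69 to -0.03, and the 2 of TUT7 gave -0.62 and 0.23. UPF1, the helicase recruited to histone mRNA in its decay, changed by 0.00 ± 0.06 (limma adjusted p = 0.945). All genes of this list but TUT4 and ATR have a mean signal above 5, a range where 47.7% of all genes fell.

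Of 20 histone chaperone and acetyltransferase genes, 2 rose, 8 fell and 10 were not called, with a median change of -0.09. Most of them have a mean signal of 5 or more, a range where 23.4% of all genes rose and 47.7% fell. After quantile normalization the balance turned, with 7 higher, 4 lower and a median of 0.11. SUPT16H, a subunit of the chaperone FACT, read 7.27, 7.28 and 7.21 on CSF3 arrays, against 8.05, 7.95 and 8.01 on Ctrl arrays, and fell by 0.75 ± 0.06 (limma adjusted p = 4.45e-05). RBBP7 and RBBP4, histone-binding subunits of several chromatin complexes, fell by 0.76 ± 0.06 and 0.60 ± 0.06, and ATRX, a chromatin remodeller that works with an H3.3 chaperone, by 0.81 ± 0.09. The 8 probe sets of ATRX ran from -1.31 to 0.19. NASP, a chaperone of H1 and of H3 with H4, fell by 0.15 ± 0.05 as deposited (limma adjusted p = 0.0394) but read 0.06 higher after quantile normalization, so its direction is not settled.

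Of 11 measured genes for histones made outside S phase as well, 7 rose, 2 fell and 2 were not called, with a median change of 0.20. For this list and the next, 44.0% of all genes rose and 26.5% fell, and at a mean signal of 5 or more 23.4% rose and 47.7% fell. After quantile normalization 6 rose and 2 fell, with a median of 0.27. H2AX, whose protein marks DNA breaks once phosphorylated, read 8.69, 8.68 and 8.67 on CSF3 arrays, against 8.36, 8.24 and 8.31 on Ctrl arrays, a rise of 0.38 ± 0.06. H3-3B, an H3.3 gene, rose by 0.34 ± 0.06, H1-10 by 0.43 ± 0.06, H2AZ2 by 0.37 ± 0.05 and H2AZ1 by 0.17 ± 0.06. The 4 probe sets of H3-3B ran from -0.22 to 0.34. For H2AZ2 the mean of its probe sets changed by -0.063 instead. MACROH2A2 and MACROH2A1, which encode histones found in silent chromatin, fell by 0.78 ± 0.06 and 0.50 ± 0.05. Of 19 S phase replication genes 7 rose, 6 fell and 6 were not called, with a median of 0.00, whereas after quantile normalization 12 rose and 5 fell, with a median of 0.18. PCNA, the sliding clamp of DNA polymerases, rose by 0.38 ± 0.06, CCNA2, for cyclin A2, by 0.38 ± 0.06 and TK1, a thymidine kinase, by 0.32 ± 0.06. MCM3, a subunit of the replicative helicase, rose by 0.42 ± 0.06, but the mean of its 4 probe sets changed by -0.30. MCM6 and MCM4, subunits of the same helicase, fell by 0.72 ± 0.07 and 0.43 ± 0.06, and POLA1, a subunit of the polymerase that starts DNA strands, by 0.72 ± 0.08.

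**Figure D4:**
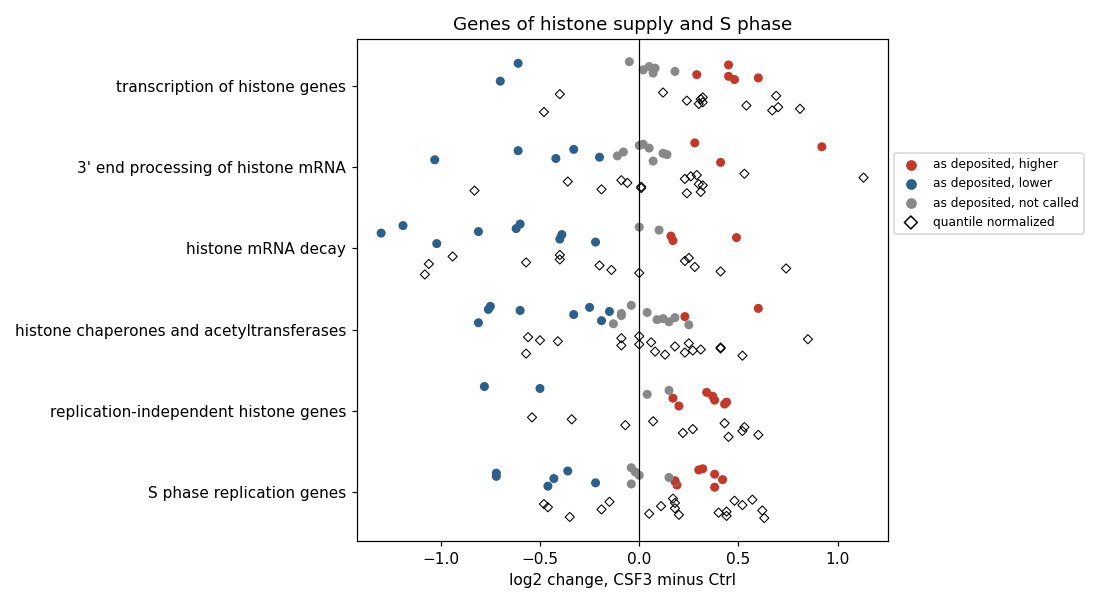
Change in log2 signal, CSF3 minus Ctrl, of each measured gene in 6 lists of histone supply and S phase, as deposited (circles coloured by the call at a limma adjusted p under 0.05) and after quantile normalization (diamonds, drawn below). Each list has genes on both sides of 0, and the decay list has the most falls, 9 of 14.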

How the data were processed

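Per the labels, biotin-labelled total RNA of 3 CSF3 and 3 Ctrl samples of cells labelled HCT116 was hybridised to Affymetrix arrays. The authors deposited 1 value per probe set and array, taken here as log2 values since they run from 0.81 to 12.65. The base of the logarithm, background correction, summarisation and normalization method were not given in the sources used. If the base differed, folds would change and tests would not. Names of probe sets come from the platform's annotation, and all 68 histone genes matched RefSeq by gene identifier.

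CSF3 minus Ctrl was fitted over all 49293 probe sets that are not array controls by lmFit followed by eBayes (limma 3.58.1, R 4.3.3), with Benjamini-Hochberg adjustment over all of them and a threshold of 0.05. No dim probe set was left out, and no detection calls were used. The number of arrays limits the precision. Across probe sets, r was 0.994 between CSF3 arrays, 0.998 between Ctrl arrays and 0.970 to 0.974 between groups. The members and lists were chosen with earlier results of these data known.

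Values on every array are given for the 4 histone genes with the largest called rise, for up to 4 called falls, and for the called gene of highest signal in each class. Of the lists of histone supply and S phase, the 4 genes with the smallest p and NPAT, SLBP, CASP8AP2, LSM11, UPF1, NASP, CCNE1, CCNE2, CDK2, E2F1, H2AZ1, H3-3B and H2AX are named. The cell type markers named do not follow that rule. Other genes named, and other members given by array, were chosen after their values were seen. The alternatives are given in the closing section.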

Additional observations from a re-analysis of the deposited data

How the results depend on the processing

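The 38 rises, 1 fall and median change of 0.30 became 25, 2 and 0.17 after quantile normalization and 23, 3 and 0.14 after cyclic loess. With the 30% dimmest probe sets left out, 31 genes remained measured, 22 rose and the median was 0.41. With a gene's probe sets averaged 43 rose and 0 fell, by Student's test without moderation 27 rose and 1 fell, and when a log2 change of 1 or more was required 0 rose and 0 fell. Leaving out each array in turn gave 31 to 37 rises, 1 fall each time and medians of 0.27 to 0.31. Counting the 64 distinct probe sets, an alternative chosen after seeing the data, gave 35 rises and 1 fall. With the replicate number as a block, 37 rose and 1 fell, with a median of 0.30. For the dim filter, averaged probe sets, Student's test, left-out arrays, distinct probe sets and block, no share of all genes was computed. The counts under those settings thus cannot be set against other genes. Deviations of same-numbered arrays correlated at 0.024, 0.016 and 0.028, so they share only a number. After quantile normalization 19 of the 68 histone genes had the opposite sign to the deposited change, 16 of them called in neither setting, and after loess 24 did, 19 of them called in neither. Among genes called as deposited or in the alternative, signs turned for H2AC7 (loess -0.18), H2AC18 and H2AC19 (quantile 0.23, loess 0.22), H2BC3 (quantile -0.0043, loess -0.035), H2BC14 (loess -0.0017), NASP (quantile 0.055, loess 0.06, mean of probe sets 0.11), and, with the mean of probe sets, H2AZ2 (-0.063), MCM3 (-0.3) and LSM11 (0.23). The cause was not tested. Without detection calls, low signals limit what a call on a dim gene shows.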
